A study of Mus musculus with 26 samples.

Results

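The bipolar fate factors described here are 8 genes, chosen by name: Otx2, Otx2os1, Crx, Vsx1, Fezf2, Bhlhe23, Prdm8 and Prdm1. They are 8 of 18193 genes that the array measured with a single gene symbol, and 7 of the 13951 genes bright enough to be tested, Bhlhe23 being too dim. RNA of 13 neuron subtypes, sorted by flow cytometry from mouse retina at postnatal day 6, was measured on 26 single-colour Affymetrix arrays, with 2 replicates from different litters for each subtype. After papain dissociation and sorting, RNA was amplified in 2 rounds and labelled with biotin. The study compared the subtypes with each other and had no treatment. All cells carried a fluorescent reporter or, in the Isl2 line, bgal.

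The bipolar cells were ON BC (GFP+, C57BL/6) and MP BC (CFP+VC1.1–, mixed C57BL/6 x CD1). The 5 amacrine subtypes (AC) were MP AC (CFP+VC1.1+, from the same mixed background as MP BC), AII AC (GFP+, Swiss Webster x C57BL/6), PaxCre AC (GFP+, GABAergic, C57BL/6), J AC (YFP+, glycinergic, C57BL/6) and starburst AC (Kusabira Orange+Thy1–, C57BL/6). The 6 ganglion cell subtypes (RGC) were all sorted as Thy1+: BD, J, W3 and W7 by YFP and Isl2 by bgal, all on C57BL/6, and Cdh3 by GFP. The labels give the Cdh3 strain as Swiss Webster x C57BL/7 for replicate 1 and x C57BL/8 for replicate 2, which differ from each other and from the C57BL/6 of other groups. Every group is thus as pure as its reporter and gate. MP BC and MP AC came from 1 reporter line and were split by the VC1.1 antibody alone, so the gate is all that separates them.

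Bipolar cells are the interneurons that carry photoreceptor signals to amacrine and ganglion cells. In the developing retina, Otx2 and its relative Crx are homeodomain factors shared by newborn photoreceptors and bipolar cells. Prdm1 (Blimp1) is known for holding Otx2-positive precursors on the photoreceptor path, while Vsx1, Bhlhe23 and Prdm8 are known from maturing bipolar types. The first week after birth, when these cells were taken, is when rods and bipolar cells are the last retinal neurons to form.

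Otx2 and Crx proteins both bind the core motif TAATCC, which makes their own promoters the sequences of interest here. RefSeq promoters (build GRCm38.p6) were at hand for 7 of the 8 genes, with 4 start sites for Otx2, and the 250 bases before each start were searched on both strands. The motif was present in 2 of the 10 member promoters, those of Crx and of 1 Otx2 start, and in 6.25% of all 32851 promoters of that length. Crx held it 94 and 21 bases before its start, and Otx2 held it 211 bases before the start shown. Both sequences are given 5′ to 3′ along the gene, which lies on the minus strand, and capitals mark the motif, here in its reverse complement GGATTA.
Crx, chr7:15879956-15880205: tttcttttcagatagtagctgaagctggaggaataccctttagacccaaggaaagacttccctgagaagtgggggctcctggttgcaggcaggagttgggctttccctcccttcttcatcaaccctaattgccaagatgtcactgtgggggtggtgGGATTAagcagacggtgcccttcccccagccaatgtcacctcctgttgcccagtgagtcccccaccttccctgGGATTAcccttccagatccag
Otx2, chr14:48665110-48665359: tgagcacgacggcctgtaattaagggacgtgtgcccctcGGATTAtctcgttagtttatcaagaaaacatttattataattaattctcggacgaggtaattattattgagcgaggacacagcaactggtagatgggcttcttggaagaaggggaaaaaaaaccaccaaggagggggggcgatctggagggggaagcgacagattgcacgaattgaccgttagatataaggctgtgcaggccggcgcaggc
A match of these letters is a description and not a binding site. GAAAGT, part of the sites known for Prdm1, was found only before Bhlhe23, 220 bases from its start, against 12.3% of all promoters, and CATATG, an E-box bound by relatives of Bhlhe23, was in none of the 10 against 3.46%. The motifs do not overlap one another in these windows.

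Levels are given as log2(intensity + 16) after quantile normalization, where the lowest deposited intensity, 1, lies at 4.09 and the median of all values at 6.14. Values at 4.09 have no order, and differences of dim genes are understated on this scale. Levels of different genes come from different probe sets and are not compared. The brightest probe set stood for each gene, which mattered only for Crx and Vsx1, with 2 each. A gene passed the test when the limma adjusted p was under 0.05 and the difference was at least 1 log2 unit. With 2 arrays per subtype, errors are the spread between replicates within subtypes, pooled over all 26 arrays. In bulk RNA, fewer cells of a type and less RNA per cell cannot be told apart.

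Labels were read against markers first. Of 12 pan-bipolar markers, 11 were higher in bipolar than in amacrine cells, led by Cabp5 (a calcium-binding protein, 5.95 ± 0.33 SE), and Pcp4l1 was lower (-1.23 ± 0.22). In the same comparison 8 of 9 tested amacrine markers were lower, led by Tfap2b (-6.19 ± 0.21). Between MP BC and MP AC, 11 of the 12 pan-bipolar markers were again higher, and Pcp4l1 did not pass. ON BC exceeded MP BC in 7 of 10 ON bipolar markers, led by Pcp2 (5.70 ± 0.23). Of 6 tested OFF bipolar markers only the receptor gene Tacr3 was lower in ON BC (-4.88 ± 0.33), and 5 did not pass. As subtype means, Pcp2 read 12.05 in ON BC and 6.34 in MP BC, and Gng13 10.91 and 5.62. Median deposited intensity was 61.5 to 74.8 on ganglion cell arrays and 37.4 to 47.1 on the other 14, so that array scale and ganglion identity cannot be told apart.

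**Figure D1:**
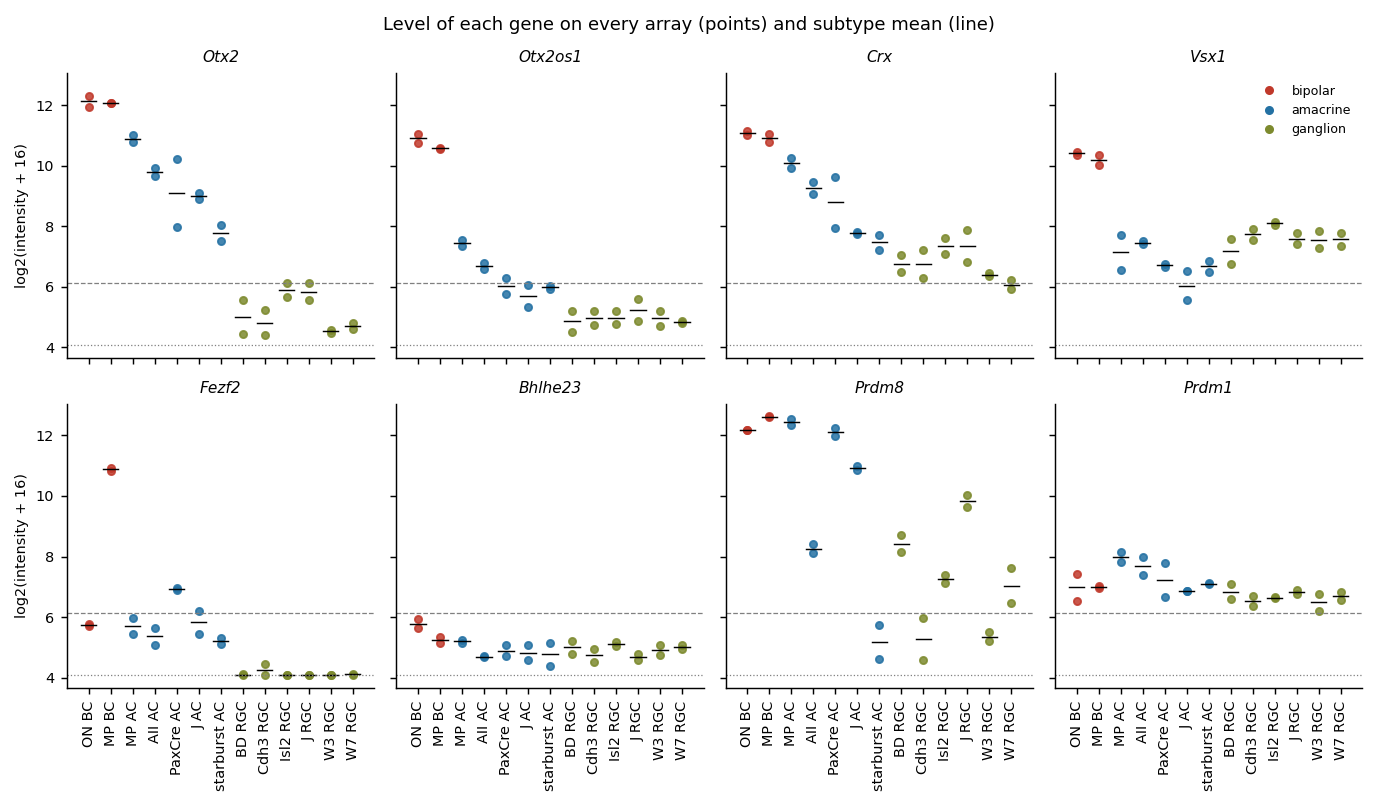
Level of each gene on every array, as log2(intensity + 16), by subtype. Points are single arrays coloured by class, lines are subtype means (n = 2), the dotted line is the floor at 4.09 and the dashed line the median of all values at 6.14. Otx2, Otx2os1, Crx and Vsx1 were highest in both bipolar subtypes, Fezf2 in MP BC only, and Prdm8 in both bipolar subtypes, MP AC and PaxCre AC.

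In all, 6 members were higher in bipolar than in amacrine cells: Otx2, Otx2os1, Crx, Vsx1, Fezf2 and Prdm8. In the same direction 4.67% of all genes passed, and 5.70% passed as lower. The members' median difference was 2.61, against 0.01 over all genes tested. Prdm1 did not pass (-0.38 ± 0.20, adjusted p = 0.151). Against ganglion cells the same 6 genes were higher, where 11.2% of all genes were, with a median of 4.22. Otx2, Otx2os1, Crx and Vsx1 read higher on every bipolar array than on every amacrine array, whereas Fezf2 and Prdm8 overlapped between those classes. For Crx and Vsx1 this was on the brighter probe set, and on the second one the classes overlapped. The share of all genes that separate in this way was not counted.

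Otx2, the homeodomain factor required for photoreceptor and bipolar fates, read 11.94 and 12.31 in ON BC and 12.07 and 12.07 in MP BC. It read 10.78 and 11.00 in MP AC, 9.94 and 9.66 in AII AC, 10.21 and 7.97 in PaxCre AC, 8.91 and 9.11 in J AC, and 8.05 and 7.53 in starburst AC. The 12 ganglion cell arrays lay between 4.41 and 6.12, with a median of 5.02. All 14 bipolar and amacrine arrays were therefore above all ganglion cell arrays, and the order ran from bipolar cells through MP AC down to starburst AC. The bipolar subtypes overlapped, as did AII with PaxCre and PaxCre with J AC. The replicates of PaxCre AC differed by 2.25, against a median of 0.36 between replicates of a subtype. Bipolar cells exceeded amacrine cells by 2.78 ± 0.29 (limma adjusted p = 7.4e-07) and ganglion cells by 6.97 ± 0.29 (adjusted p = 4.3e-13). Amacrine cells exceeded ganglion cells by 4.18 ± 0.21 (adjusted p = 3.9e-12).

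Otx2os1 is a noncoding transcript beside Otx2 on chromosome 14, the annotated genes lying 1644 bases apart in GRCm38.p6. It read 11.05 and 10.76 in ON BC and 10.56 and 10.57 in MP BC, then 7.56 and 7.35 in MP AC and 6.58 and 6.80 in AII AC. The other 3 amacrine subtypes lay between 5.33 and 6.29 and the 12 ganglion cell arrays between 4.53 and 5.61. Only the bipolar arrays were above 10, and MP AC and AII AC formed separate lower steps. The difference between bipolar and amacrine cells was 4.37 ± 0.18 (adjusted p = 4.7e-12), the largest among the members. Across the 13 subtype means Otx2os1 correlated with Otx2 at r = 0.881, a description of points that share arrays and class.

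Crx, the cone-rod homeobox factor downstream of Otx2, read 11.14 and 11.02 in ON BC, 11.05 and 10.80 in MP BC, 10.26 and 9.92 in MP AC, 9.45 and 9.05 in AII AC, and 9.64 and 7.93 in PaxCre AC. J AC read 7.82 and 7.74, starburst AC 7.22 and 7.71, and the ganglion cell arrays 5.93 to 7.88. As for Otx2, the subtype means ran down from bipolar cells through MP AC to starburst AC. The bipolar subtypes overlapped, as did AII and PaxCre AC. Unlike for Otx2, J AC and starburst AC overlapped with J RGC, and starburst AC also with Isl2 RGC. Bipolar cells exceeded amacrine cells by 2.33 ± 0.26 (adjusted p = 1.5e-06). The second Crx probe set gave another picture: all 14 bipolar and amacrine arrays lay between 6.55 and 7.39 and all ganglion cell arrays between 4.09 and 4.51. On it the bipolar and amacrine classes differed by 0.25 ± 0.13 (adjusted p = 0.144 over 24604 probe sets), which did not pass. The step from amacrine to ganglion cells passed on both probe sets, at 1.89 ± 0.19 and 2.59 ± 0.09.

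Vsx1, a homeodomain factor of cone bipolar types, read 10.46 and 10.37 in ON BC and 10.36 and 10.02 in MP BC. All other arrays lay between 5.57 and 8.13, with the highest values in Isl2 RGC (8.13 and 8.05) and the lowest in J AC (5.57 and 6.51). Bipolar cells stood clear of every other subtype, and 9 of the 12 neighbouring pairs in the order of subtypes overlapped. The difference from amacrine cells was 3.50 ± 0.21 (adjusted p = 5.1e-10) and from ganglion cells 2.68 ± 0.21 (adjusted p = 2.1e-09). Amacrine cells read lower than ganglion cells by a difference of -0.82 ± 0.15, below the 1 log2 unit required, and by -1.37 without quantile normalization. The second Vsx1 probe set was too dim to test and was brightest in ON BC at 5.75 and 5.14.

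Fezf2, a zinc finger factor known from cortical projection neurons, marked MP BC alone. It read 10.84 and 10.91 in MP BC against 5.70 and 5.76 in ON BC. PaxCre AC was second at 6.96 and 6.91, the other amacrine arrays lay between 5.09 and 6.19, and the ganglion cell arrays between 4.09 and 4.45, at or near the floor. ON BC overlapped with J AC and MP AC, so the class difference from amacrine cells (2.49 ± 0.14, adjusted p = 1.3e-10) rested on MP BC, and its adjusted p was 0.172 with the subtype means as units. Without the subtypes of mixed strain, which removes MP BC, the class difference was -0.26. Fezf2 was lower in ON BC than in MP BC by -5.15 ± 0.23 (limma adjusted p = 1.2e-10). It was the only member of 7 tested to pass in that comparison, in which 2.44% of all genes were lower. ON BC and MP BC differ in strain and reporter as well as in subtype, so these cannot be told apart there.

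The other 6 tested members did not pass between the bipolar subtypes. Otx2 differed by 0.06 (95% interval -0.99 to 1.102), Crx by 0.15 (-0.77 to 1.08), Vsx1 by 0.23 (-0.53 to 0.98), Otx2os1 by 0.34 (-0.30 to 0.98) and Prdm8 by -0.44 (-1.31 to 0.44). These intervals reach about 1 log2 unit and do not show equal levels. Among 14 tested members of the list of other bipolar network factors, Isl1 (3.27 ± 0.38), a LIM homeobox gene of ON bipolar cells, and Lmo4 (2.06 ± 0.26) were higher in ON BC. Nfib (-2.83 ± 0.62) and Nfix (-1.47 ± 0.37), of the nuclear factor I family, were lower.

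Bhlhe23, a basic helix-loop-helix factor of rod bipolar cells, was dim on every array. It read 5.93 and 5.63 in ON BC, 5.16 and 5.34 in MP BC, and between 4.39 and 5.26 on all other arrays, never above the median of all values. ON BC was the highest subtype and overlapped with none. With no filter on dim genes, bipolar cells read 0.64 ± 0.15 higher than amacrine cells (adjusted p = 0.0033 over 18193 genes), a difference under 1 log2 unit. Over the 13 subtypes it then passed, with a range of 1.11 (adjusted p = 0.032).

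**Figure D2:**
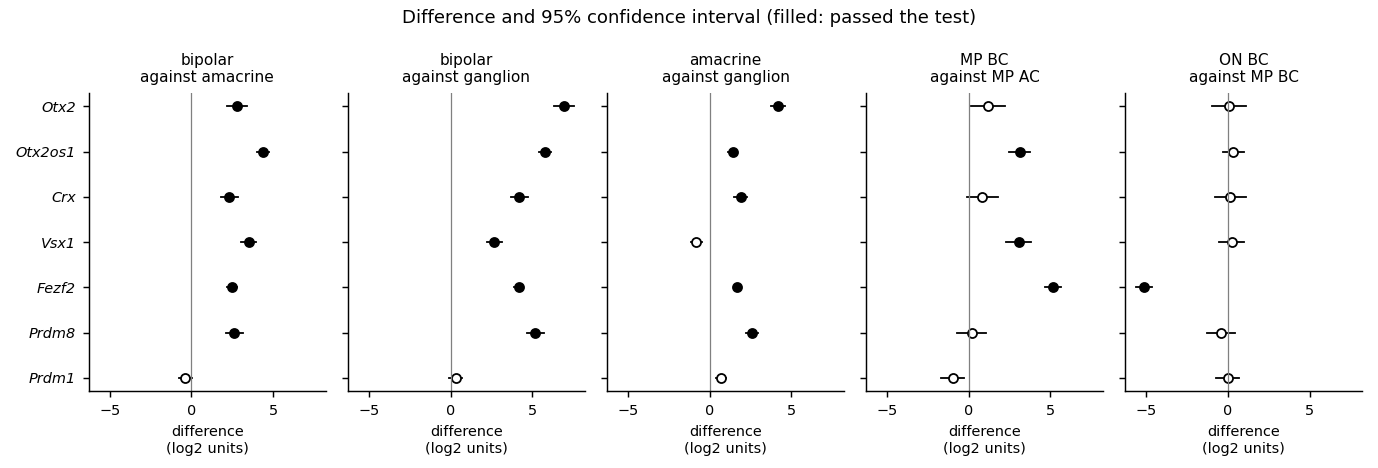
Differences of the 7 tested members in 5 comparisons, in log2 units, with 95% confidence intervals from the fit over 26 arrays. Filled points passed the test and open points did not. Against amacrine cells 6 members were higher in bipolar cells, whereas Fezf2 alone passed between ON BC and MP BC, at -5.15.

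Prdm8, a PR-domain factor needed for the survival of some bipolar types, was not restricted to bipolar cells. It read 12.62 and 12.61 in MP BC, 12.33 and 12.55 in MP AC, 12.19 and 12.17 in ON BC, and 12.26 and 11.99 in PaxCre AC. J AC followed at 11.00 and 10.84, then AII AC at 8.10 and 8.40, and starburst AC was lowest at 5.75 and 4.63. The range over the 5 amacrine subtype means, 7.25, was the widest of any member. In ganglion cells it read 10.02 and 9.62 in J RGC, 8.14 and 8.70 in BD RGC, 7.40 and 7.12 in Isl2 RGC, 6.45 and 7.63 in W7 RGC, 5.52 and 5.20 in W3 RGC, and 5.99 and 4.59 in Cdh3 RGC. J RGC lay above all other ganglion cell arrays. Bipolar cells exceeded amacrine cells by 2.61 ± 0.25 (adjusted p = 1.7e-07), but with the subtype means as the units that difference had an adjusted p of 0.463.

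Prdm8 was the only one of 7 tested members to differ among the 6 ganglion cell subtypes (range 4.53, adjusted p = 6.2e-06), where 5.94% of all genes did. The mean level of 9 microglia genes ranged there from 9.75 and 10.63 in J RGC to 8.29 and 6.53 in W3 RGC and 9.48 and 6.04 in Cdh3 RGC. The mean of 10 amacrine markers had the same order of subtype means as Prdm8. It was 8.01 in J, 7.23 in BD, 7.10 in Isl2, 6.95 in W7, 6.53 in W3 and 6.39 in Cdh3 RGC. The J RGC arrays read 7.465 and 8.55 in this mean. Isl2 and W7 RGC overlapped in this mean and in Prdm8, and W3 and Cdh3 RGC overlapped in Prdm8. The part of either list was not tested. Otx2 had a range of 1.36 there (adjusted p = 0.250), which passed at 0.041 when either or both PaxCre AC arrays were left out of the fit. Among the 5 amacrine subtypes all 7 members differed, against 40.2% of all genes, and among the 13 subtypes all 7 did, against 71.3%. The Vsx1 call among amacrine subtypes was lost without AII AC replicate 1 or 2 or J AC replicate 1 (adjusted p = 0.063 to 0.134).

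Prdm1, the PR-domain repressor tied to the photoreceptor choice, varied least of the tested members, with a range of 1.51 over the 13 subtype means. It read 7.84 and 8.16 in MP AC, 7.97 and 7.38 in AII AC, and 7.80 and 6.67 in PaxCre AC, and all other arrays lay between 6.21 and 7.44. Of 12 neighbouring pairs in the order of subtypes, 11 overlapped. Bipolar cells read 6.55 to 7.44 and ganglion cells 6.21 to 7.09. Its range among amacrine subtypes was 1.14 (adjusted p = 0.043), and leaving out any 1 of 15 arrays, among them both replicates of starburst AC, MP AC and J AC, ended that call (adjusted p = 0.051 to 0.165). The call over 13 subtypes ended without MP AC replicate 2 (adjusted p = 0.066).

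Within the amacrine class, each subtype was set against the other 4. MP AC was higher in Prdm8 (3.32 ± 0.33), Otx2 (1.97 ± 0.39), Crx (1.77 ± 0.35) and Otx2os1 (1.36 ± 0.24), 4 of 7 members where 5.13% of all genes were higher. MP AC and AII AC were the amacrine subtypes of mixed strain, so strain and subtype cannot be told apart for them. Among the C57BL/6 amacrine subtypes alone, Prdm8 and Fezf2 passed the F test. Otx2 (adjusted p = 0.187), Crx (adjusted p = 0.126) and Otx2os1 (adjusted p = 0.740) did not. Starburst AC was lower in Prdm8 (-5.74 ± 0.33), Otx2 (-1.91 ± 0.39) and Crx (-1.51 ± 0.35), where 5.61% were lower. The Otx2 call there was lost without starburst AC replicate 2 (difference -1.64) and the Crx call without replicate 1 (difference -1.27). Both calls were also lost in C57BL/6 subtypes, at -1.26 for Otx2 (limma adjusted p = 0.099) and -0.82 for Crx (adjusted p = 0.218). Prdm8 was lower in AII AC (-1.92 ± 0.33, with 10.5% of genes lower). PaxCre AC was higher in Prdm8 (2.92 ± 0.33) and Fezf2 (1.40 ± 0.18), where 4.97% were.

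J AC was higher in Prdm8 (1.42 ± 0.33, adjusted p = 0.0078), with 2.80% of genes higher, and lower in Crx (-1.12 ± 0.35, adjusted p = 0.039), with 3.26% lower. Leaving out J AC replicate 1 or 2 ended both calls. The Crx call was also lost without MP AC replicate 1, AII AC replicate 1, PaxCre AC replicate 1 or starburst AC replicate 2. Without J AC replicate 2, Otx2os1 (-1.21) and Vsx1 (-1.43) passed as lower there, and Vsx1 also did without MP AC replicate 2 or starburst AC replicate 2. These 5 comparisons share their amacrine arrays, so 1 high subtype lowers the others. Without PaxCre AC replicate 1, whose Otx2 was high, PaxCre AC was lower in Otx2 by a difference of -1.40 (adjusted p = 0.022). On the second Crx probe set the differences of MP AC and starburst AC had the opposite sign, -0.20 and 0.21, and did not pass.

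MP BC and MP AC, from 1 reporter line and split by the VC1.1 gate, were compared with each other. MP BC was higher than MP AC in Fezf2 (5.16 ± 0.23, adjusted p = 5.6e-11), Otx2os1 (3.11 ± 0.30, adjusted p = 7.8e-07) and Vsx1 (3.06 ± 0.36, adjusted p = 7.2e-06), 3 of 7 members where 3.82% of all genes were higher. Otx2 (1.18 ± 0.50, adjusted p = 0.169), Crx (0.84 ± 0.44, adjusted p = 0.309) and Prdm8 (0.17 ± 0.42, adjusted p = 0.907) did not pass. Prdm1 read lower in MP BC by -0.998 ± 0.33 (adjusted p = 0.064) and did not pass either. At an unaltered 1.18, the Otx2 difference passed when both PaxCre AC arrays were left out of the fit (limma adjusted p = 0.029). It also passed when only the MP BC and MP AC arrays were fitted (adjusted p = 0.023). The intervals of the differences that did not pass, 0.14 to 2.23 for Otx2 and -0.09 to 1.76 for Crx, do not show equal levels. Of 14 other network factors tested, 4 were higher in MP BC, 2 lower and 8 did not pass, with a median of -0.07: Zfhx4 (4.53 ± 0.36), Lhx3 (2.97 ± 0.32), Lhx4 (2.42 ± 0.41) and Zeb2 (1.78 ± 0.26) were higher in MP BC, and Nfix (-4.44 ± 0.37) and Nfia (-1.69 ± 0.36) were lower.

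Rod photoreceptors are also known to express Otx2 and Crx, and 14 of 16 listed rod genes were measured. Their mean level was 7.89 and 8.26 in MP BC, 8.33 and 7.80 in MP AC, 8.17 and 7.54 in ON BC, 7.28 and 7.51 in AII AC, 7.45 and 6.75 in PaxCre AC, 6.95 and 6.47 in J AC, and 6.55 and 6.32 in starburst AC. Ganglion cell arrays lay between 5.55 and 6.31. Of the 14 genes, 10 to 12 were above the median of all values in both bipolar subtypes, MP AC and AII AC, and 3 to 6 in ganglion cells, where up to 3 were at the floor. Sag, the rod arrestin, averaged 11.73 in MP AC, 11.62 in MP BC and 8.99 in starburst AC. As subtype means, rod gene levels thus fell across the amacrine subtypes in the order MP, AII, PaxCre, J and starburst. Their replicates overlapped between AII and PaxCre AC, between PaxCre and J AC, and between J and starburst AC. The subtype means of Otx2, and of Crx on its brighter probe set, had the same order. On the second Crx probe set the order was PaxCre, starburst, J, MP and AII. The order of the rod genes was not theirs alone. The mean of the 12 pan-bipolar markers had the same order of amacrine subtypes, from 7.06 in MP AC to 5.74 in starburst AC. Its replicates overlapped between MP AC (7.46 and 6.66) and AII AC (6.53 and 6.85). They also overlapped between AII and PaxCre AC (6.63 and 6.37), and between PaxCre and J AC (6.43 and 6.41). The part of rod or bipolar cells in the amacrine levels of Otx2 and Crx was not tested.

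Rod genes also moved with the PaxCre AC replicates: 12 of the 14 read higher in replicate 1, as did 42.3% of all genes tested. All 8 members read higher there too, Otx2 by 2.25, Crx by 1.71 and Prdm1 by 1.13, and the others by 0.05 (Fezf2) to 0.52 (Otx2os1). Between MP BC and MP AC 0 of 13 tested rod genes passed by limma (1 higher and 0 lower at an unadjusted p under 0.05), with a median difference of -0.12, while between the bipolar and amacrine classes 4 were higher and 1 lower, with a median of 0.82. Otx2os1, Vsx1 and Fezf2 passed between MP BC and MP AC. In the same comparison 3 of 10 photoreceptor factors were lower in MP BC and 0 higher by limma (5 and 1 at an unadjusted p under 0.05), with a median of -0.95, and 4 of 10 Müller glia genes and 4 of 8 progenitor and cell cycle genes were lower. The part of these lists in the members' levels was not tested.

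**Figure D3:**
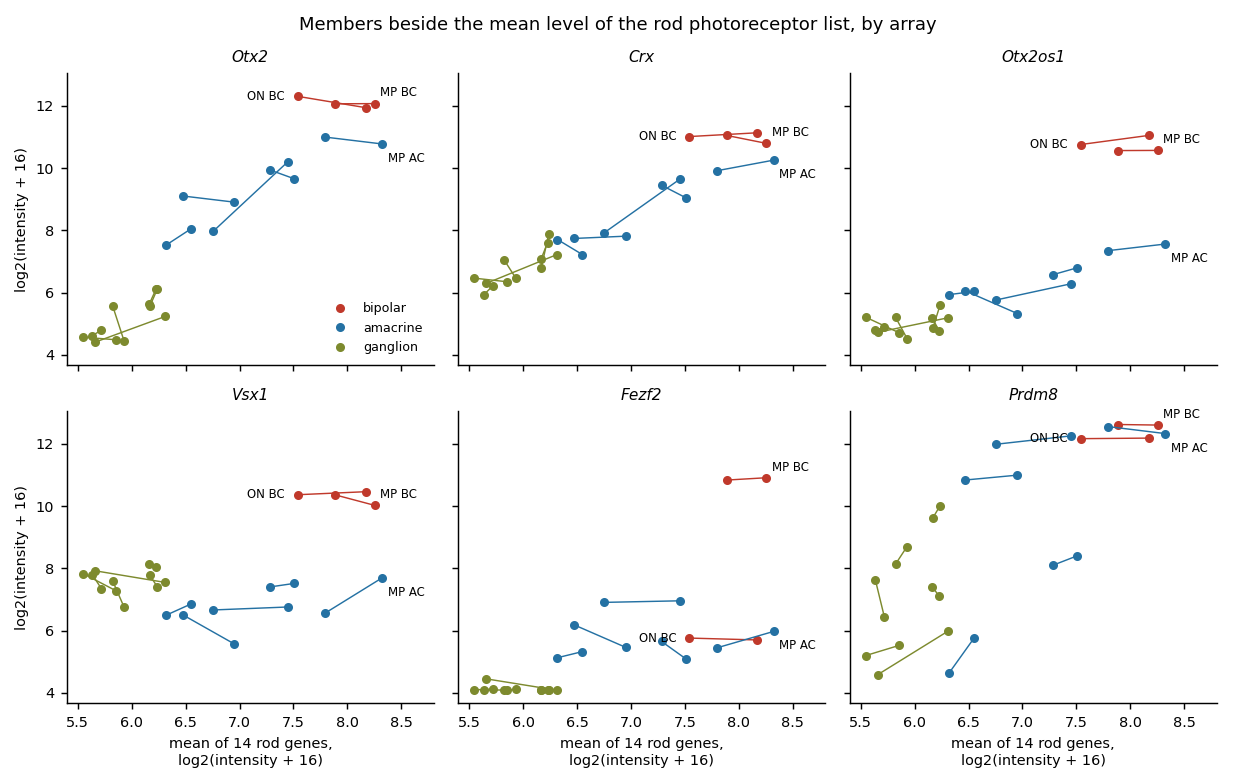
Level of 6 members on each array against the mean level of 14 rod genes on that array, both as log2(intensity + 16). Points are arrays coloured by class, and lines join the replicates of a subtype. Otx2 and Crx (brighter probe set) climb with the rod genes across the amacrine arrays, whereas Vsx1 lies between 5.57 and 7.70 in amacrine cells along the whole axis and above 10 in bipolar cells.

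Among the other bipolar network factors, 14 of 18 were tested, and 6 were higher in bipolar than in amacrine cells: the LIM homeobox genes Lhx4 (3.62 ± 0.24) and Lhx3 (2.99 ± 0.19), then Zfhx4 (2.77 ± 0.21), Neurod4, Nfib and Isl1. Nfix was lower (-1.12 ± 0.22) and 7 did not pass. The list's median difference was 0.45, against 0.01 over all genes. Of 10 tested photoreceptor factors, 0 were higher in bipolar cells by limma (3 at an unadjusted p under 0.05), and Neurod2 (-2.19 ± 0.45) and Rorb (-1.07 ± 0.24) were lower. Nrl, the rod factor, differed by 0.71 ± 0.29 (adjusted p = 0.065).

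**Figure D4:**
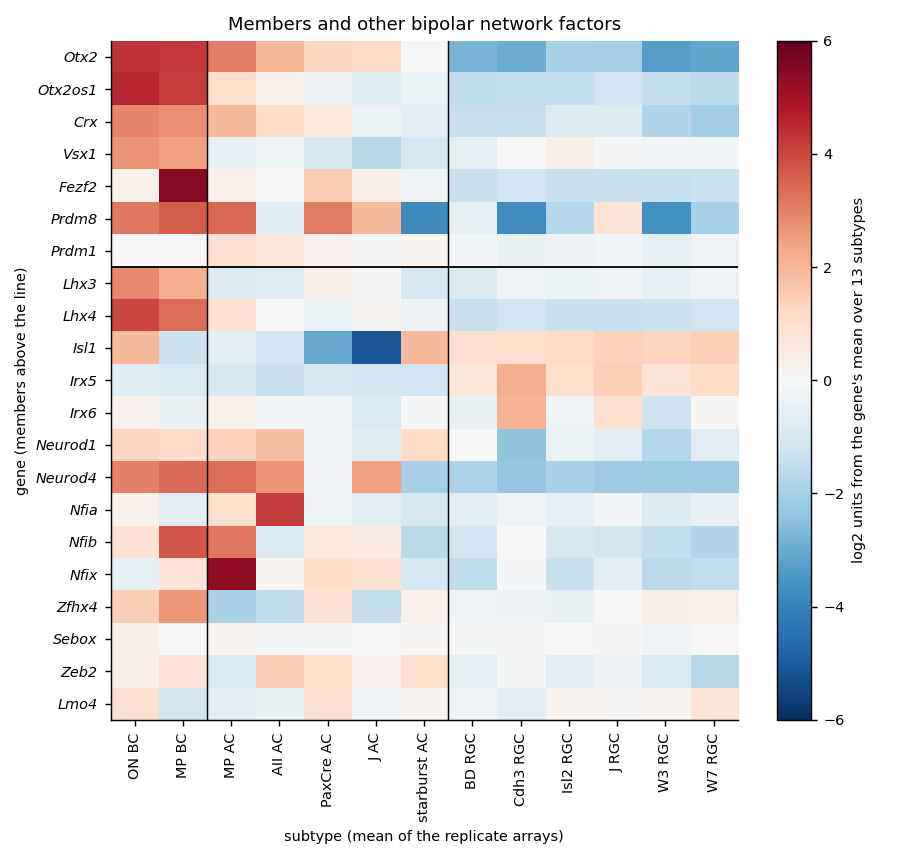
Subtype means of the 7 tested members and 14 other bipolar network factors, as log2 units from each gene's mean over 13 subtypes (red higher, blue lower). Lhx4 and Lhx3 share the bipolar pattern of Otx2os1, Neurod4 is also high in MP, AII and J amacrine cells, and Fezf2 stands out in MP BC.

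The genes most like each member were taken over the 13 subtype means among all genes tested, by Pearson r, as a description of means that share class and array scale. Otx2 was nearest to Wdr76 (0.989), Rcvrn (0.979), Cfap126, Kmt2d and Dgkd, and Crx to Plekhb1 (0.982), Aipl1 (0.980), Dgkd, Otx2 (0.965) and Kmt2d. Rcvrn and Aipl1 are photoreceptor genes and belong to the rod list. Otx2os1 was nearest to Cabp5 (0.995), Lhx4 (0.989), Rgs9bp, Tle6 and Crocc, of which Cabp5 and Rgs9bp are in the pan-bipolar list. Vsx1 was nearest to Fmn1 (0.955), Gnb3 (0.953), a transducin subunit of ON bipolar cells and cones, Gem, Abhd14b and Stom.

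Fezf2 was nearest to Wfdc2 (0.965), Stxbp5, Cdk11b, Stat5b and Slit2, and Prdm8 to 4833422M21Rik (0.932), Hap1, Nuak2, Gpbp1l1 and Abca1. Prdm1 was nearest to Myocd (0.912), Ralgps2, Thumpd2, Adi1 and Upk1b. Among the members themselves, Otx2 and Crx were the most alike (r = 0.965), followed by Otx2os1 and Crx (0.927), and Vsx1 and Prdm1 the least (-0.121).

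Amacrine cells were higher than ganglion cells in 5 of 7 members, where 9.00% of all genes were: Otx2, Crx, Prdm8 (2.59 ± 0.18), Fezf2 (1.69 ± 0.10) and Otx2os1 (1.40 ± 0.13). Fezf2 and Otx2os1 were dim there. Above the median of all values were 3 (Fezf2) and 5 (Otx2os1) of 10 amacrine arrays, and 0 of 12 ganglion cell arrays for either. With a pseudocount of 64 their differences fell to 0.71 and 0.75 and no longer passed. Otx2os1 also did not pass in C57BL/6 subtypes (0.925). Prdm1 (0.70 ± 0.14) did not reach 1 log2 unit. Vsx1 read lower in amacrine cells (-0.82 ± 0.15) and did not reach it either, but passed as lower without quantile normalization (-1.37, adjusted p = 3.8e-07) and in C57BL/6 subtypes (-1.12, adjusted p = 6.0e-05). Without quantile normalization, the median difference over all genes was -0.53 for bipolar and -0.53 for amacrine cells against ganglion cells, compared with 0.02 and -0.003 with it. The share of calls that were higher then fell from 37.7% to 16.1% for bipolar cells and from 36.3% to 14.5% for amacrine cells, and the called members kept their direction. Markers of other cells moved with these comparisons. Of 9 microglia genes, 9 were lower in amacrine and 9 in bipolar cells than in ganglion cells, with median differences of -2.13 and -2.15. Their mean level was 6.04 to 10.63 on ganglion cell arrays, 5.50 to 7.68 on amacrine and 5.55 to 6.73 on bipolar arrays, with 0 of the 9 genes at the floor on any array. Of 13 tested rod genes, 7 were higher in amacrine and 9 in bipolar cells than in ganglion cells, and 1 was lower in bipolar cells. The part of either list in the members' differences was not tested. With the subtype means as units, Fezf2 (adjusted p = 0.058) and Prdm8 (adjusted p = 0.113) no longer passed against ganglion cells in the amacrine comparison.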

How the data were processed

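Values are single-colour array intensities as deposited by the authors, linear and never below 1, a floor that 2.87% to 4.02% of an array's values share. The sources used here do not name their software or scaling. Probe sets were named through the platform's annotation, and the 34945 with 1 symbol were kept. From the deposited intensity, log2(intensity + 16) was taken, the 26 arrays were quantile normalized, and the brightest probe set stood for a gene. A gene was tested if at least 2 arrays lay above the overall median. Tests were two-sided, with limma 3.58.1 in R 4.3.3, 1 mean per subtype (residual degrees of freedom 13, prior 4.59), contrasts or F tests of those means, and Benjamini-Hochberg adjustment over 13951 genes in each of 13 comparisons. Subtypes had equal weight within a class. Replicates came from different litters, per the labels.

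The text names the 8 members, up to 3 called genes a direction from each gene list, and the 5 genes most like each member. The members and lists were chosen with earlier results of these data known. Scripts were tested on simulated data. Alternatives covered normalization, pseudocount, filter, probe set, variance model, array weights, arrays in the fit, units, strain, replicate number and each array left out.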

Additional observations from a re-analysis of the deposited data

How the results depend on the processing

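For the 91 member results with a test, 3630 alternatives over 43 settings were computed: 3531 kept their side of the threshold, 75 lost a call, 21 gained one and 3 reversed. A change of sign was counted as a reversal only where a difference passed in at least 1 of the fits compared. Differences that passed in neither could change sign and count as kept, as for Crx in AII AC (0.72, and -0.29 on the second probe set). The reversals were Crx in MP AC against other AC (-0.20) and in starburst AC (0.21) on the second probe set, and Fezf2 in bipolar against amacrine cells in C57BL/6 subtypes (-0.26). This last setting leaves out MP BC, the subtype in which Fezf2 was high. The causes of the other changes were not tested. Where a single array is left out, the other is assumed to vary like the rest. The number of members called for J AC (main 2) was 1 as deposited, with arrays shifted to the same median, the median over probe sets, the second probe set, only the arrays compared, or C57BL/6 subtypes, 0 with array weights, and 0 to 3 with 1 array left out. Leaving out both PaxCre AC arrays gave 4 for J AC and 2 for the ganglion cell subtypes (main 1), and leaving out both MP AC arrays gave 3 for AII AC (main 1) and 1 for J AC; both settings were chosen after seeing the data. For amacrine against ganglion cells (main 5) the number was 3 with a pseudocount of 64 or subtype means as units. For the 5 amacrine subtypes (main 7) it was 4 with a pseudocount of 64 or the second probe set and 2 in C57BL/6 subtypes. For PaxCre AC (main 2) it was 1 with a pseudocount of 64. With 1 array left out the range was 1 to 2 for the ganglion cell subtypes, 5 to 7 for the amacrine subtypes, 6 to 7 for the 13 subtypes, 2 to 3 for starburst AC and PaxCre AC, 3 to 4 for MP BC against MP AC, and the main number elsewhere.

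Replicate numbers were checked for pairing: over 78 subtype pairs, deviations of same-numbered arrays correlated at -0.23 to 0.37 (median 0.03), and 21 pairs were above 0.1. A median over all pairs cannot tell whether particular subtypes shared litters. With the number as a replicate block, no member call changed (6 members in bipolar against amacrine cells). Counts of all genes called moved by over 1.5 times with a pseudocount of 64 for amacrine against ganglion (2096, main 3456), bipolar against ganglion (2681, main 4132), J AC (484, main 846), MP AC (954, main 1450) and PaxCre AC (596, main 912). They did so for J AC with the median over probe sets (563) or array weights (523), for amacrine against ganglion with a stricter filter (2252), and for bipolar against amacrine with subtype means as units (423, main 1446). In C57BL/6 subtypes they were 1914 for the amacrine subtypes (main 5608) and 544 for the ganglion cell subtypes (main 828), the latter also 460 with only the arrays compared and 1791 without BD RGC replicate 1. ON BC against MP BC gave 464 with only the arrays compared (main 702). For MP AC, 38.7% of calls were higher with arrays shifted to the same median, against 49.4%. The number of arrays, 2 per subtype, limits the precision.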

Other observations

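Lists of other retinal cell classes were also read between bipolar and amacrine cells, beside the members. Of 6 tested cone genes, Gngt2 (3.22 ± 0.36 SE), a cone transducin subunit, and Opn1sw (1.62 ± 0.32), the short-wavelength opsin, were higher in bipolar cells by limma. Of 8 tested progenitor and cell cycle genes, 5 were lower in bipolar than in amacrine cells, led by Sfrp2 (-2.11 ± 0.21), Hes5 (-1.97 ± 0.44) and Fgf15 (-1.34 ± 0.17). Of 10 tested Müller glia genes, 3 were lower: Dkk3 (-1.998 ± 0.20), Vim (-1.88 ± 0.30) and Slc1a3 (-1.39 ± 0.18). Mean cone gene levels were 6.77 to 7.27 on the bipolar arrays, 6.79 and 7.17 in MP AC, and 5.83 to 6.45 in the other amacrine subtypes.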
